A study of Homo sapiens with 24 samples.

Results

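Markers of mesenchymal cells that build the cytoskeleton and the matrix (VIM, FN1, CDH2, SPARC, THBS1, TAGLN, CALD1, MYL9, AXL and TNC) were followed through loss of the TNRC6 paralogs in HCT116 cells, a human colorectal cancer line of epithelial origin. The 10 genes were taken by name from a list of such markers, and transcript estimates were summed to each gene through GENCODE 29, an annotation of the human genome. They are 10 of 44889 genes with reads, and all 10 were among the 24153 genes that passed the filter on low counts. VIM, FN1, SPARC and MYL9 were higher in cells without TNRC6A and TNRC6B in each fit that was run, THBS1 was highest where TNRC6C was silenced as well, and TAGLN was not called in any comparison.

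The study asked what each TNRC6 paralog, a scaffold that ties Argonaute proteins to the machinery of mRNA decay, contributes to gene expression. RNA was sequenced from 24 libraries in 8 groups of 3. Without transfection these were TNRC6A-/-, TNRC6B-/- and TNRC6AB-/- cells, the last with both genes mutated, and wild-type cells. With transfection they were TNRC6AB-/- cells given siTNRC6C, a pool of duplexes against TNRC6C, or siGL2, a noncomplementary control duplex, and wild-type cells given siTNRC6C or siGL2. All groups share the HCT116 background, the serum-containing medium and a passage range of 12 to 18. Each knockout genotype is 1 purchased line, so that genotype and line cannot be told apart, and TNRC6AB-/- cells were plated more densely than wild-type cells for transfection. Nothing says that the 3 libraries of a group came from separate cultures, so p-values measure only the spread between these libraries, which may be technical.

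Epithelial cells that turn mesenchymal give up E-cadherin junctions, build filaments of vimentin beside their keratins, secrete a fibronectin-rich matrix and strengthen their contractile actin cables. In colorectal tumours much of the RNA of these genes comes from fibroblasts of the stroma, cells that a pure line lacks. MicroRNAs bind mRNAs through a short seed, and TNRC6 proteins carry the repression that follows. The miR-200 family is known for holding epithelial cells in their state, and miR-29 for repressing matrix genes.

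The sequences shown are seed words of miR-200c and miR-29a in FN1, THBS1 and SPARC, the 3 matrix genes that rose without TNRC6A and TNRC6B, and a word of the transfected pool in THBS1. The seed, bases 2 to 8 from the 5′ end of a guide, stands in capitals in the guides, and the complementary word in capitals in the sites. Words were searched on the mRNA strand only, in the 3′ untranslated region of 1 annotated transcript per gene, for 15 miRNA families and 4 duplex strands. Words of other families are not shown. miRNA sequences are from RefSeq (GRCh38).
hsa-miR-200c-3p: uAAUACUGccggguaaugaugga
hsa-miR-29a-3p: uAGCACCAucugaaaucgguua
siTNRC6C pool, antisense strand 2: uACUGAUGucaaccuggaaguguagaa
siGL2, antisense strand: uCGAAGUAuuccgcguacg
FN1, miR-200c word, bases 245 to 251: ttcaataccgctCAGTATTttaaat
FN1, miR-200c word, bases 531 to 537: atcaatttttccCAGTATTtttata
THBS1, miR-200c word, bases 3492 to 3498: tagaaaagcctcCAGTATTaagctc
SPARC, miR-29a word, bases 2187 to 2193: gattggcccattTGGTGCTggccat
THBS1, siTNRC6C strand 2 word, bases 123 to 129: tttctgtgcttgCATCAGTgtggac
FN1 held the miR-200c word CAGTATT in both places within an untranslated region of 693 bases, and 7.22% of 1774 regions of like length held it at least once. THBS1 held it once in 4097 bases, as did 38.7% of 1391 regions of like length, and SPARC held the miR-29a word TGGTGCT once in 2475 bases, as did 21.6% of 2009. CAGTATT also stood once in TNC and once in CALD1. VIM and MYL9 held no CAGTATT, none of the 10 genes held the let-7 word CTACCTC or the siGL2 word TACTTCG, and CATCAGT, the word of siTNRC6C strand 2, stood in THBS1 and TNC. The word of siTNRC6C strand 1, GTCCACT, stood once in TAGLN. A word that matches is a description and not a site at which binding was measured. Strand 2 of siTNRC6C is listed at 27 bases, and its word was taken from the whole strand. Whether cells shorten that strand first, which could change its seed, was not tested.

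Depth ran from 28144290 to 42689320 estimated reads per library. TNRC6A, checked first, averaged 68.7 CPM (counts scaled to library size by TMM) in TNRC6A-/- and 51.04 in TNRC6AB-/- cells against 111.5 in wild type. TNRC6B averaged 119.8 in TNRC6B-/- and 93.1 in TNRC6AB-/- cells against 192.3 in wild type, and TNRC6C averaged 19.7 CPM with siTNRC6C against 119.8 with siGL2 in TNRC6AB-/- cells, and 21.0 with siTNRC6C against 53.7 with siGL2 in wild type. Untransfected libraries spread more widely than transfected ones. Over 8 members, CDH2 and TNC left out, the median coefficient of variation of TPM (reads per length and depth) within a group was 24.0% without and 6.92% with transfection. Of 8 stromal markers, PDGFRA, PDGFRB, DCN, LUM, THY1 and FAP never passed 1 CPM in a library. Their summed level with COL6A3 and COL3A1 was 16.6 to 61.9 CPM in TNRC6AB-/- cells against 2.80 to 6.85 CPM in wild type, of which COL3A1, a collagen, gave 41.4 CPM in TNRC6AB-/- cells and 0.0522 CPM in wild type on average. The 10 epithelial markers summed to 1362 to 2899 CPM over all libraries, with CDH17, VIL1 and CDX1 never over 1 CPM. Their members moved apart, since of 9 tested 2 rose and 3 fell in TNRC6A-/- cells and again in TNRC6AB-/- cells (edgeR). Of all genes 8.52% rose and 5.47% fell in TNRC6A-/- cells, and 17.2% rose and 12.3% fell in TNRC6AB-/- cells. The median of the 9 was 0.32 (log2) in TNRC6AB-/- cells, against 0.01 over all genes. KRT8, KRT18 and KRT19 averaged 1000, 637 and 469 CPM there against 644, 510.5 and 353 CPM in wild type. In TNRC6AB-/- cells the adhesion protein EPCAM fell by 1.38 (log2, SE 0.20, adjusted p = 1.47e-05), the epithelial splicing regulator ESRP1 by 2.10 (SE 0.27, adjusted p = 2.51e-06), and CDH1, given with the cadherins, fell too. Markers of endothelium summed to 1.99 to 3.93 CPM over all libraries, with CDH5, KDR and TEK never over 1 CPM, and markers of blood to 5.71 to 7.99 CPM in TNRC6AB-/- cells against 2.48 to 5.80 CPM in wild type, with CD14 and CD3E never over 1 CPM. The part of these markers in the results was not tested, and in bulk RNA fewer cells of a type and less RNA per cell cannot be told apart.

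**Figure D1:**
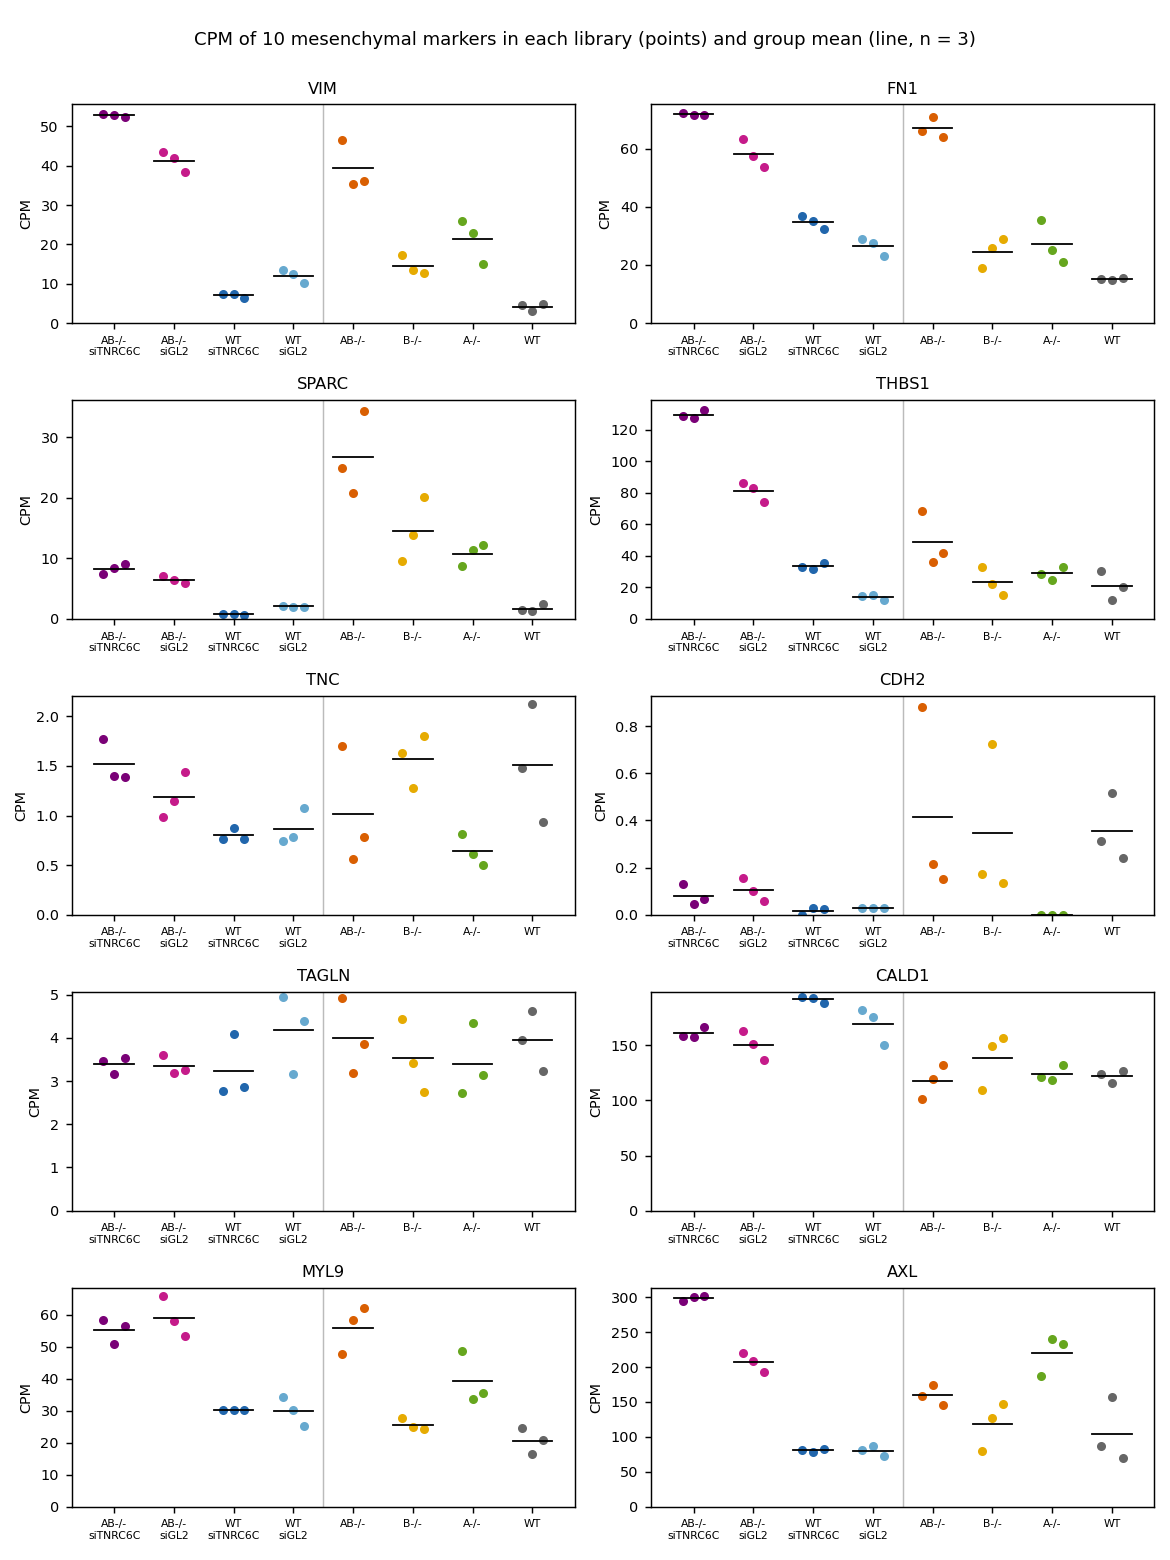
CPM (vertical axis, linear from 0) of 10 genes in each of 24 libraries, with points for libraries and a line for the mean of 3. Transfected groups stand left of the grey line and untransfected groups right of it. VIM stood at 35.4 to 46.5 CPM in TNRC6AB-/- against 3.18 to 4.86 CPM in wild type, while for TAGLN the groups overlapped in each comparison.

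Against wild type 7 members were called in TNRC6A-/- cells, 3 in TNRC6B-/- and 6 in TNRC6AB-/- cells. In detail, 5 members rose and 2 fell in TNRC6A-/- cells (edgeR quasi-likelihood test, adjusted p under 0.05 over all genes), where 8.52% of all genes tested rose and 5.47% fell. Among TNRC6B-/- cells 3 rose, where 2.2% of all genes rose and 0.94% fell, and 0 fell (0 at an unadjusted p under 0.05, and 0 by DESeq2 or limma voom). Loss of both gave 6 that rose, where 17.2% of all genes rose and 12.3% fell, and 0 that fell by the same tools. The median log2 fold change of the 10 members was 0.66 in TNRC6A-/-, 0.18 in TNRC6B-/- and 0.92 in TNRC6AB-/- cells, where the median over all genes was 0.02, 0.04 and 0.01. Summed over the members, TPM was 140.7 ± 11.0 in TNRC6A-/-, 91.0 ± 19.2 in TNRC6B-/- and 156.6 ± 33.6 in TNRC6AB-/- cells, against 87.1 ± 10.4 in wild type (mean ± SD, n = 3 each, as for all values below). Since the 3 comparisons share the wild-type libraries, a low or high library there moves all of them together.

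**Figure D2:**
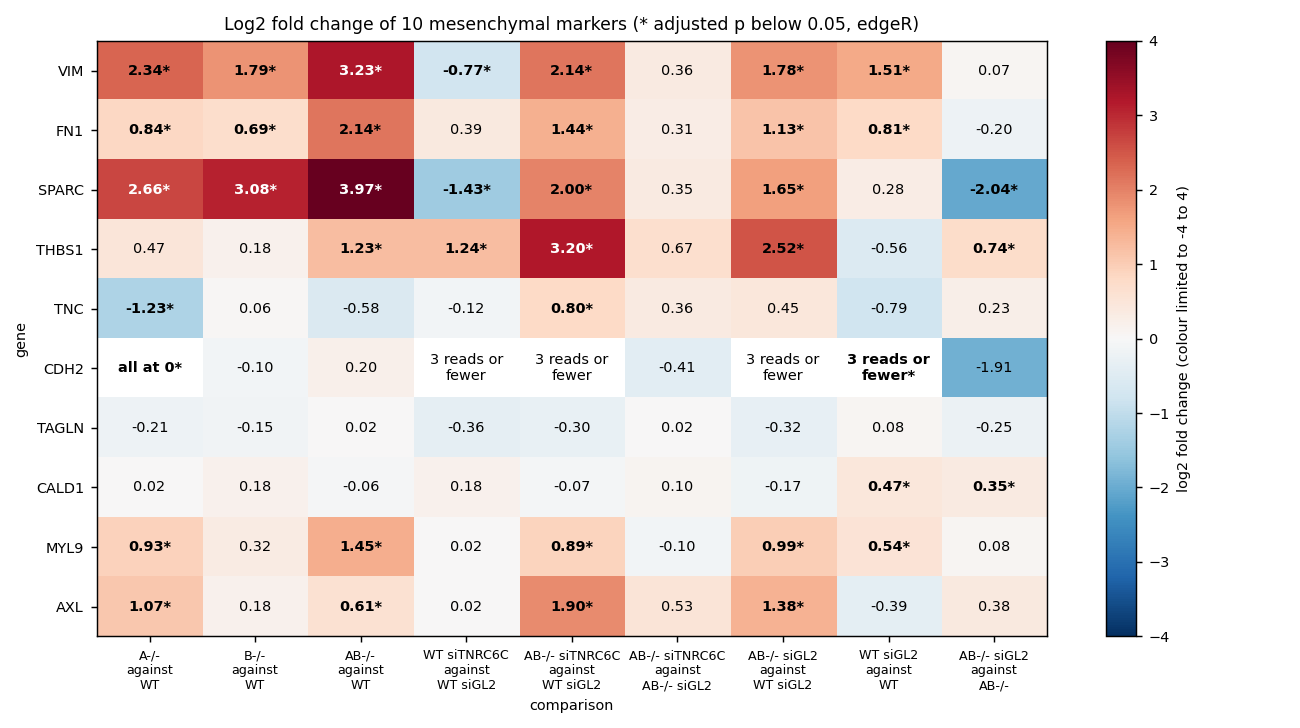
Log2 fold change (colour and printed value) of 10 genes (rows) in 9 comparisons (columns, each named with its second group below), with a star where the adjusted p of edgeR was under 0.05. CDH2 is given without a value where a group held 3 reads or fewer in all. SPARC carried the highest value, 3.97 in TNRC6AB-/- against wild type.

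VIM (ENSG00000026025.15, GRCh38 chromosome 10, 17228259 to 17237593) encodes vimentin, the intermediate filament of mesenchymal cells. It stood at 26.0, 22.8 and 15.1 CPM in TNRC6A-/- libraries, 17.4, 13.4 and 12.8 in TNRC6B-/-, and 46.5, 35.4 and 36.2 in TNRC6AB-/-, against 4.55, 3.18 and 4.86 in wild type. No knockout library overlapped the wild type, and each TNRC6AB-/- library stood above each single-knockout library. The rise was 5.06-fold in TNRC6A-/- cells (log2 2.34, SE 0.19, adjusted p = 1.37e-08, edgeR) and 3.46-fold in TNRC6B-/- cells (1.79, SE 0.19, adjusted p = 2.03e-06). In TNRC6AB-/- cells it was 9.35-fold (3.23, SE 0.19, adjusted p = 2.18e-11). Loss of TNRC6A changed VIM by 1.43 (log2) in cells that lacked TNRC6B, against 2.34 in cells that had it. That difference of -0.91 (SE 0.25) passed the test of the interaction (adjusted p = 0.0256, edgeR) but not in a fit of the 12 untransfected libraries (-0.87, adjusted p = 0.198), with limma voom (-0.90, adjusted p = 0.217) or without TMM scaling (-0.86, adjusted p = 0.0704). It was lost without wild type 2 (-0.74, adjusted p = 0.0641), without TNRC6A-/- 1 (-0.74, 0.0914) or 2 (-0.86, 0.0575) and without TNRC6AB-/- 2 (-0.84, 0.0648) or 3 (-0.85, 0.0533).

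A list of 10 further genes of intermediate filaments and their linkers included the epithelial keratins KRT7, KRT8, KRT18, KRT19 and KRT20. Of the 10, 6 rose and 1 fell in TNRC6A-/- cells and again in TNRC6AB-/- cells, with medians of 0.62 and 0.55. Over all genes 8.52% rose and 5.47% fell in TNRC6A-/- cells, 17.2% rose and 12.3% fell in TNRC6AB-/- cells, and the medians were 0.02 and 0.01. Against wild-type siGL2, 3 rose and 2 fell in TNRC6AB-/- siGL2 (median 0.15), where 9.17% of all genes rose and 12.5% fell. In TNRC6AB-/- siTNRC6C 3 rose and 2 fell as well (median -0.07), where 17.0% of all genes rose and 25.2% fell. SYNM, synemin, a partner of vimentin in mixed filaments, rose by 2.19 (SE 0.14, adjusted p = 5.07e-11, edgeR) in TNRC6AB-/- cells, and NES, nestin, rose by 1.56 (SE 0.19, adjusted p = 1.6e-06). LMNA, which lines the nucleus, was higher by 0.91 (SE 0.10) in TNRC6A-/- and by 0.66 (SE 0.10) in TNRC6AB-/- cells. Epithelial KRT8 rose as well in TNRC6A-/- cells, by 0.80 (SE 0.15, adjusted p = 0.000862), while the epithelial markers EPCAM, ESRP1 and CDH1 fell there (-0.98, adjusted p = 0.00183, -0.97, adjusted p = 0.0152, and -1.22, adjusted p = 0.0141, edgeR). TNRC6B-/- cells held 1 call in the list, a fall of KRT7, a keratin of simple epithelia, by 2.49 (SE 0.56, adjusted p = 0.012). The median of the list was 0.31 there, and 2.2% of all genes rose and 0.94% fell (median 0.04).

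FN1 (ENSG00000115414.18, chromosome 2, 215360440 to 215436172, minus strand) encodes fibronectin, which cells bind through integrins and assemble into fibrils. It reached 66.2, 70.9 and 64.0 CPM in TNRC6AB-/- libraries, 35.4, 25.1 and 21.1 in TNRC6A-/-, and 19.0, 25.9 and 28.8 in TNRC6B-/-, against 15.2, 14.7 and 15.6 in wild type. The wild-type libraries lay close together and below all knockout libraries. FN1 rose 4.42-fold in TNRC6AB-/- cells (2.14, SE 0.15, adjusted p = 5.5e-10, edgeR) and 1.79-fold in TNRC6A-/- cells (0.84, SE 0.15, adjusted p = 0.00055). FN1 also rose in TNRC6B-/- cells, 1.62-fold (0.69, SE 0.15, adjusted p = 0.0099), but not when only the 6 libraries compared were fitted (0.66, adjusted p = 0.343), with limma voom (adjusted p = 0.434) or without TNRC6B-/- 3 (0.56, adjusted p = 0.0849). The effect of TNRC6A loss was 1.45 where TNRC6B was also lost and 0.84 where it was not, and this difference did not pass (0.61, SE 0.21, adjusted p = 0.085). It passed without TMM scaling (0.70, adjusted p = 0.0119), without a filter (0.62, adjusted p = 0.0415), without TNRC6A-/- 1 (0.84, adjusted p = 0.00736) and without TNRC6B-/- 3 (0.74, adjusted p = 0.0407).

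SPARC (ENSG00000113140.10, chromosome 5, 151661096 to 151687165, minus strand) encodes a collagen-binding matricellular protein. It stood at 24.9, 20.8 and 34.4 CPM in TNRC6AB-/- libraries, 8.68, 11.4 and 12.2 in TNRC6A-/-, and 9.53, 13.8 and 20.1 in TNRC6B-/-, against 1.45, 1.253 and 2.39 in wild type. Both single knockouts overlapped each other, and all 3 knockout groups stood clear of the wild type. SPARC rose 15.7-fold in TNRC6AB-/- (3.97, SE 0.26, adjusted p = 1.12e-10, edgeR), 6.32-fold in TNRC6A-/- (2.66, SE 0.25, adjusted p = 2.06e-07) and 8.46-fold in TNRC6B-/- cells (3.08, SE 0.26, adjusted p = 6.53e-08). On the log2 scale the changes of the single knockouts add up to more than that of the double knockout. The interaction, a test that 7.75% of all genes passed, was -1.77 (SE 0.33, adjusted p = 0.00116, edgeR), and it did not pass with counts rescaled from TPM and transcript length (-1.69, adjusted p = 0.0822). The estimate for SPARC rested for 45.6% of its reads on a transcript annotated with a retained intron (SPARC-202) and for 43.5% on the full-length coding transcript (SPARC-201).

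THBS1 (ENSG00000137801.10, chromosome 15, 39581079 to 39599466) encodes thrombospondin 1, a secreted glycoprotein that can activate latent TGF-beta. Untransfected libraries held 68.2, 36.3 and 41.6 CPM in TNRC6AB-/-, 28.4, 24.9 and 33.1 in TNRC6A-/-, and 32.98, 22.0 and 15.4 in TNRC6B-/-, against 30.1, 12.0 and 20.3 in wild type. Both single knockouts overlapped the wild type, and the double knockout did not. THBS1 rose 2.34-fold in TNRC6AB-/- cells (1.23, SE 0.26, adjusted p = 0.00088, edgeR), but not with counts rescaled from TPM and transcript length (0.60, adjusted p = 0.434). In TNRC6A-/- cells the difference was 0.47 (SE 0.26, adjusted p = 0.248), and without wild type 1 it passed (0.84, adjusted p = 0.0452). The sign of this difference was not stable, with values from -0.49 to 0.84 over 33 settings. In TPM the TNRC6A-/- mean was lower, 4.855 ± 0.529 against 7.15 ± 5.12 in wild type, with overlap. Of the reads of THBS1 96.7% were assigned to its full-length transcript but only 59.7% of its TPM, the rest going to short transcripts, and its TPM averaged 10.9 ± 10.5 in TNRC6AB-/- cells against 7.15 ± 5.12 in wild type.

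TNC (ENSG00000041982.15, chromosome 9, 115019578 to 115118257, minus strand) encodes tenascin C, a glycoprotein of wound and tumour stroma, and CDH2 (ENSG00000170558.8, chromosome 18, 27950966 to 28177446, minus strand) encodes N-cadherin, which mesenchymal cells express in place of E-cadherin. Both were near the floor. TNC held 16.3 to 74.9 reads in a library. It was at 0.814, 0.613 and 0.501 CPM in TNRC6A-/- libraries against 1.48, 2.12 and 0.936 in wild type, a change of -1.23 (SE 0.34, adjusted p = 0.0188, edgeR). The call was lost in a fit of the 6 libraries (adjusted p = 0.0661) and without wild type 2 (-0.91, adjusted p = 0.115) or TNRC6A-/- 2 (-1.20, 0.0635) or 3 (-1.08, 0.0867). In TNRC6AB-/- libraries TNC was at 1.70, 0.563 and 0.784 CPM, overlapping the wild type. That difference of -0.58 (SE 0.32, adjusted p = 0.2) passed without TNRC6AB-/- 1 (-1.16, adjusted p = 0.00723).

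CDH2 had 28 reads at most in any library. It was listed at 0 reads in all 3 TNRC6A-/- libraries, against 10, 16 and 8 reads in wild type, at least 10.9-fold lower when 3 reads are allowed over the group (adjusted p = 0.00328, edgeR). In TNRC6AB-/- libraries, which lack TNRC6A as well, 28, 8 and 5 reads were counted, and in TNRC6B-/- libraries 8, 21 and 4. These groups overlapped the wild type. E-cadherin, CDH1, was far more abundant than CDH2, at 26.9 ± 9.43 TPM in wild type where CDH2 was at 0.0733 ± 0.0256 TPM. CDH1 averaged 24.6 CPM in TNRC6AB-/- and 42.2 CPM in TNRC6A-/- cells against 98.2 CPM in wild type (-1.996, SE 0.33, adjusted p = 6.64e-05, and -1.22, SE 0.32, adjusted p = 0.0141, edgeR), while 79.3 CPM in TNRC6B-/- cells was not called (-0.31, SE 0.32, adjusted p = 0.745). Of 7 further cadherins tested, 2 fell in TNRC6AB-/- cells, CDH1 and the placental cadherin CDH3 (-0.71, SE 0.22, adjusted p = 0.0178, edgeR), where 12.3% of all genes fell.

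MYL9 (ENSG00000101335.9, chromosome 20, 36541484 to 36551447) encodes the regulatory light chain of smooth muscle myosin. Libraries held 47.6, 58.3 and 62.0 CPM in TNRC6AB-/-, 48.8, 33.5 and 35.4 in TNRC6A-/-, and 27.7, 24.8 and 24.2 in TNRC6B-/-, against 24.5, 16.4 and 20.8 in wild type. Only the TNRC6B-/- libraries overlapped the wild type. MYL9 rose 2.73-fold in TNRC6AB-/- (1.45, SE 0.15, adjusted p = 1.61e-07, edgeR) and 1.91-fold in TNRC6A-/- cells (0.93, SE 0.15, adjusted p = 0.000183). The estimate in TNRC6B-/- cells was 0.32 (SE 0.15, adjusted p = 0.325). Its nonmuscle paralogs MYL12A and MYL12B were far more abundant, at 208.2 ± 40.4 and 249.4 ± 46.1 TPM in TNRC6AB-/- cells against 146.6 ± 16.7 and 175.8 ± 22.3 TPM in wild type. Both rose in TNRC6AB-/- cells, MYL12A by 0.61 (SE 0.13, adjusted p = 0.000856) and MYL12B by 0.59 (SE 0.12, adjusted p = 0.000513, edgeR). Among transfected cells neither was called, with -0.0014 for MYL12A and 0.03 for MYL12B in TNRC6AB-/- siGL2 and -0.009 and -0.18 in TNRC6AB-/- siTNRC6C, each against wild-type siGL2. The effect of siGL2 differed with genotype for both (-0.61, adjusted p = 0.038, for MYL12A and -0.56, adjusted p = 0.0381, for MYL12B, edgeR).

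TAGLN and CALD1 encode transgelin and caldesmon, proteins that bind and stabilise actin filaments. TAGLN (ENSG00000149591.16, chromosome 11, 117199321 to 117204782) ran from 2.71 to 4.95 CPM over the 24 libraries and averaged 3.99 CPM in TNRC6AB-/- cells against 3.94 CPM in wild type (0.02, adjusted p = 0.971, edgeR). The estimate for TAGLN rested for 39.4% of its reads on a transcript annotated with a retained intron (TAGLN-208). Coding transcripts TAGLN-201 and TAGLN-202 held 28.3% and 19.1%. TAGLN2, its paralog of epithelial and other nonmuscle cells, was at 28.6 TPM in TNRC6AB-/- and 28.8 TPM in wild type, where TAGLN was at 2.89 and 2.22 TPM. CALD1 (ENSG00000122786.19, chromosome 7, 134744252 to 134970728) held 102, 119 and 132 CPM in TNRC6AB-/- libraries against 124, 116 and 127 in wild type (-0.06, SE 0.12, adjusted p = 0.779). It was at 35.9 ± 1.15 TPM in wild type, the highest of the 10 genes per length, followed by AXL at 22.2 ± 9.36, MYL9 at 13.9 ± 3.78, THBS1 at 7.15 ± 5.12 and VIM at 2.41 ± 0.461 TPM. In TNRC6AB-/- cells MYL9, CALD1 and AXL averaged 34.6, 31.5 and 31.2 TPM and VIM 21.7 ± 8.20 TPM.

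Of 27 further contractile and actin-binding genes 25 were tested. In TNRC6AB-/- cells 16 rose and 2 fell, with a median of 0.41, and in TNRC6A-/- cells 6 rose and 0 fell, with a median of 0.20. Of all genes 17.2% rose and 12.3% fell in TNRC6AB-/- cells (median 0.01), and 8.52% rose and 5.47% fell in TNRC6A-/- cells (median 0.02). Against wild-type siGL2, 7 rose and 0 fell in TNRC6AB-/- siGL2 (median 0.21), where 9.17% of all genes rose and 12.5% fell. In TNRC6AB-/- siTNRC6C 12 rose and 1 fell (median 0.32), where 17.0% of all genes rose and 25.2% fell. MYL6, the essential light chain that pairs with MYL9, rose by 1.14 (SE 0.15, adjusted p = 4.74e-06, edgeR) in TNRC6AB-/- cells, and MRTFA and MRTFB, actin-sensing coactivators of SRF, rose by 0.61 (SE 0.087, adjusted p = 1.11e-05) and 0.44 (SE 0.074, adjusted p = 6.87e-05). MYL6 also rose with siGL2 in wild type (0.73, SE 0.15, adjusted p = 0.00223, edgeR). The effect of siGL2 on MYL6 differed with genotype (-0.90, SE 0.21, adjusted p = 0.0104, edgeR). In TNRC6A-/- cells the first of the list were the filamin FLNA, higher by 0.75 (SE 0.089, adjusted p = 3.71e-06), and smooth muscle actin ACTA2, higher by 0.70 (SE 0.13, adjusted p = 0.000739). Of the list 0 rose and 2 fell in TNRC6B-/- cells (median 0.05), where 2.2% of all genes rose and 0.94% fell (median 0.04). PALLD, a scaffold of actin bundles, fell by 1.29 (SE 0.12, adjusted p = 4.29e-07), and the filamin FLNC by 0.71 (SE 0.20, adjusted p = 0.0483).

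AXL (ENSG00000167601.11, chromosome 19, 41219203 to 41261766) encodes a receptor tyrosine kinase of the TAM family, which is activated by GAS6. It stood at 187, 240 and 234 CPM in TNRC6A-/- libraries, 158, 175 and 146 in TNRC6AB-/- and 80.3, 126 and 147 in TNRC6B-/-, against 87.1, 157 and 69.6 in wild type. Wild type 2, at 157 CPM, lay among the TNRC6AB-/- libraries. AXL rose 2.11-fold in TNRC6A-/- cells (1.07, SE 0.21, adjusted p = 0.00119, edgeR), though in a fit of the 6 compared libraries the adjusted p was 0.0575. The rise in TNRC6AB-/- cells was 1.53-fold (0.61, SE 0.21, adjusted p = 0.0295) and was lost in the fit of 6 (adjusted p = 0.172) and without wild type 1 (0.50, adjusted p = 0.132) or 3 (0.39, 0.171) or TNRC6AB-/- 1 (0.62, 0.0512) or 2 (0.49, 0.142). For TNRC6B-/- cells the difference was 0.18 (SE 0.21, adjusted p = 0.787), and 0.80 (adjusted p = 0.00019) with wild type 2 and TNRC6B-/- 1 both left out. The interaction of both losses, -0.64 (SE 0.29, adjusted p = 0.208), passed without wild type 2 (-1.05, adjusted p = 0.00396) or TNRC6B-/- 1 (-0.82, adjusted p = 0.0403). Of the other TAM genes, MERTK rose by 0.67 (SE 0.14, adjusted p = 0.00653) in TNRC6B-/- and TYRO3 by 0.37 (SE 0.12, adjusted p = 0.0394) in TNRC6A-/- cells. In TNRC6AB-/- cells the ligand PROS1 rose by 1.24 (adjusted p = 5.08e-07) and GAS6 fell by 0.97 (adjusted p = 2.79e-05, edgeR).

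Among 14 tested matrix glycoproteins beside the members, 4 rose and 2 fell in TNRC6AB-/- cells, with a median of 0.15, where 17.2% of all genes rose and 12.3% fell, with a median of 0.01. TGFBI, a matrix protein induced by TGF-beta, rose by 2.83 (SE 0.28, adjusted p = 8.19e-08, edgeR) and FBLN1, fibulin 1, by 1.42 (SE 0.10, adjusted p = 5.76e-10). In TNRC6A-/- cells TGFBI fell by 2.05 (SE 0.44, adjusted p = 0.00288), the opposite direction, and the interaction of both losses was 4.88 (SE 0.52, adjusted p = 1.79e-06). TGFBI gave -0.01 (SE 0.33, adjusted p = 0.993) in TNRC6B-/- cells.

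Silencing TNRC6C in wild-type cells moved 3 members, and not in 1 direction. THBS1 rose, where 0.397% of all genes did, and VIM and SPARC fell, where 0.534% of all genes did (edgeR). THBS1 stood at 33.1, 31.8 and 35.4 CPM with siTNRC6C against 14.8, 15.3 and 12.2 with siGL2, a 2.37-fold rise (1.24, SE 0.26, adjusted p = 0.022). SPARC stood at 0.794, 0.819 and 0.684 CPM with siTNRC6C against 2.20, 2.02 and 1.98 with siGL2 (-1.43, SE 0.30, adjusted p = 0.0192). VIM stood at 7.44, 7.40 and 6.34 CPM with siTNRC6C against 13.4, 12.5 and 10.1 with siGL2 (-0.77, SE 0.18, adjusted p = 0.0358). In all 3 genes the groups did not overlap. Over the 10 members 3 were higher and 3 lower in CPM in every siTNRC6C library, where 16.3% and 12.7% of all genes were, but for CDH2, the third lower one, no library held more than 1 read, so that its separation is no result.

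These calls sat near the threshold. Leaving out any 1 of the 6 compared libraries moved the adjusted p of THBS1 to between 0.0722 and 0.122 and that of SPARC to between 0.0586 and 0.125, with log2 fold changes of 1.15 to 1.31 and -1.49 to -1.36, and that of VIM to between 0.123 and 0.213 for each of them but wild-type siGL2 3, with -0.81 to -0.69. The call of VIM was also lost without any TNRC6AB-/- siTNRC6C library or TNRC6AB-/- siGL2 2, which enter only the shared spread (adjusted p = 0.0514 to 0.0533, edgeR). With counts rescaled from TPM and transcript length none of the 3 passed (adjusted p = 0.347 for THBS1, 0.249 for SPARC and 0.0885 for VIM). In a fit of the 6 libraries alone all 3 passed. THBS1 carries CATCAGT, the word taken from the whole siTNRC6C strand 2, as 24.7% of 1391 regions of like length do. TNC, which carries it too, gave -0.12 (SE 0.34, adjusted p = 0.952, edgeR). TAGLN, with the word of strand 1, gave -0.36 (SE 0.22, adjusted p = 0.541). The part of these words in the changes was not tested. FN1 was at 36.8, 35.2 and 32.5 CPM with siTNRC6C against 28.9, 27.6 and 23.2 with siGL2, without overlap (0.39, SE 0.15, adjusted p = 0.239, edgeR), and passed in a fit of the 6 libraries (adjusted p = 0.00602). MYL9 and AXL gave estimates of 0.02 each.

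With siTNRC6C in TNRC6AB-/- cells, where all 3 paralogs are reduced, 7 members rose against wild-type siGL2, where 17.0% of all genes rose and 25.2% fell, and 0 fell (0 at an unadjusted p under 0.05, and 0 by DESeq2 or limma voom). The median of the members was 1.42 where that of all genes was 0.01. THBS1 stood at 129, 127 and 132 CPM against 14.8, 15.3 and 12.2 with siGL2 in wild type, 9.17-fold (3.20, SE 0.28, adjusted p = 5.64e-09, edgeR). VIM stood at 53.1, 53.0 and 52.5 CPM against 13.4, 12.5 and 10.1, 4.40-fold (2.14, SE 0.18, adjusted p = 2.47e-09). AXL stood at 294, 300 and 302 CPM against 80.8, 86.9 and 72.0, 3.74-fold (1.90, SE 0.21, adjusted p = 2.92e-07). In each of these genes the TNRC6AB-/- siTNRC6C libraries were the highest of all 24 and varied little.

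FN1 rose by 1.44 (SE 0.15, adjusted p = 9.15e-08, edgeR), SPARC by 1.999 (SE 0.25, adjusted p = 9.44e-07) and MYL9 by 0.89 (SE 0.15, adjusted p = 4.92e-05) in the same comparison. TNC rose by 0.80 (SE 0.32, adjusted p = 0.0478), a call lost in 17 of 33 other settings, among them the leaving out of either siTNRC6C 1 (0.68, adjusted p = 0.148) or wild-type siGL2 1 (0.71, 0.153). CALD1 was not called (-0.07, SE 0.12, adjusted p = 0.636), except that without TMM scaling it was 0.18 (adjusted p = 0.0189), while the median of all genes then shifted by 0.24. TGFBI was higher by 5.94 (SE 0.34, adjusted p = 1e-11), CCN2, a matricellular target of YAP, by 3.58 (SE 0.32, adjusted p = 1.03e-08), NES by 1.75 (SE 0.19, adjusted p = 2.1e-07) and CNN1, calponin, by 2.56 (SE 0.32, adjusted p = 1.25e-06). KRT20 was lower by 3.65 (SE 0.41, adjusted p = 2.86e-07). Of 14 matrix glycoproteins tested 5 rose and 3 fell, where 17.0% of all genes rose and 25.2% fell. TNRC6AB-/- siGL2 against the same wild-type libraries gave 5.15 for TGFBI, 2.64 for CCN2, 1.29 for NES, 1.92 for CNN1 and -2.15 for KRT20. TGFBI was also lower in wild-type siGL2 than in untransfected wild type, by 2.12 (adjusted p = 0.00182, edgeR). Of 9 epithelial markers tested 0 rose and 3 fell in TNRC6AB-/- siTNRC6C against wild-type siGL2 (median -0.125), where 25.2% of all genes fell. These were CDH1, lower by 1.41 on the log2 scale (SE 0.33, adjusted p = 0.00137), EPCAM by 0.76 (adjusted p = 0.00393) and ESRP1 by 1.55 (adjusted p = 6.13e-05, edgeR). KRT8, KRT18 and KRT19 averaged 789, 487 and 431 CPM in TNRC6AB-/- siTNRC6C against 845, 531 and 444 CPM in wild-type siGL2.

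Apart from TNC these members, 6 in all, also rose with the control duplex, in TNRC6AB-/- siGL2 against wild-type siGL2, where 9.17% of all genes rose and 12.5% fell. THBS1 stood at 86.4, 83.1 and 73.9 CPM with siGL2 in TNRC6AB-/- cells, 5.75-fold above wild-type siGL2 (2.52, SE 0.27, adjusted p = 3.26e-07, edgeR). VIM stood at 43.4, 42.0 and 38.3 CPM, 3.44-fold above it (1.78, SE 0.17, adjusted p = 8.34e-08), and AXL at 220, 209 and 193 CPM, 2.595-fold above it (1.38, SE 0.21, adjusted p = 4.37e-05). SPARC, FN1 and MYL9 rose by 1.65, 1.13 and 0.99 (adjusted p = 3.15e-05, 5.94e-06 and 3.6e-05). CDH1 was at -0.81 (SE 0.32, adjusted p = 0.0793, edgeR) and did not pass, and of 9 epithelial markers tested 1 was called, ESRP1 (-0.90, adjusted p = 0.0152). This comparison and the one before it share their wild-type siGL2 libraries.

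Within TNRC6AB-/- cells, siTNRC6C against siGL2 moved 0 members past the threshold with edgeR, where 2.19% of all genes rose and 4.38% fell. At an unadjusted p under 0.05 there were 4, all higher, DESeq2 called 0, limma voom called 4, and a fit of the 6 compared libraries called 6. THBS1 (0.67, SE 0.25, adjusted p = 0.108), AXL (0.53, SE 0.21, 0.125), VIM (0.36, SE 0.17, 0.192), FN1 (0.31, SE 0.15, 0.203) and SPARC (0.35, SE 0.22, 0.343) were higher in all 3 siTNRC6C libraries than in all 3 siGL2 libraries. Such separation upward held for 5 members and for 19.0% of all genes, and downward for 0 members and 27.9% of all genes. SPARC stood at 7.39, 8.41 and 9.02 CPM with siTNRC6C against 7.13, 6.41 and 5.92 with siGL2, and FN1 at 72.4, 71.7 and 71.7 against 63.5, 57.5 and 53.7. THBS1 passed when wild type 2 (0.67, adjusted p = 0.0462) or TNRC6B-/- 1 (0.69, adjusted p = 0.0446) was left out, and AXL when wild type 2 was (0.53, adjusted p = 0.028). MYL9 was at 58.3, 50.9 and 56.5 CPM against 65.9, 58.1 and 53.2, and overlapped. GAS6, the ligand of AXL, rose by 1.24 (SE 0.15, adjusted p = 3.15e-05, edgeR).

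**Figure D3:**
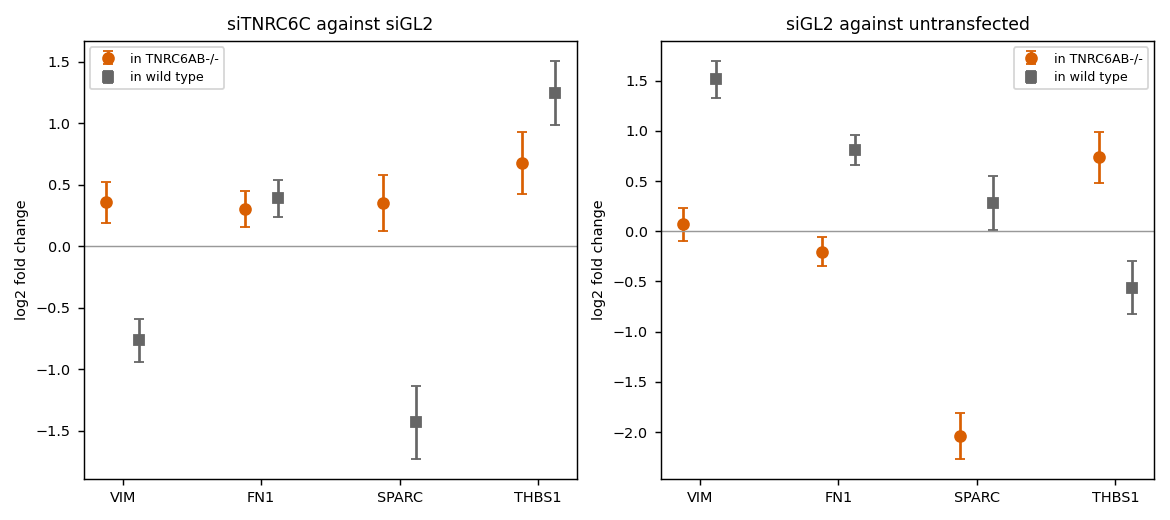
Log2 fold change ± SE (vertical axis) of 4 genes for siTNRC6C against siGL2 (left panel) and for siGL2 against untransfected cells (right panel), in TNRC6AB-/- cells (circles) and wild type (squares). For SPARC siTNRC6C gave 0.35 in TNRC6AB-/- cells and -1.43 in wild type.

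The response to siTNRC6C differed between the genotypes for SPARC and VIM. SPARC changed by 0.35 in TNRC6AB-/- cells and by -1.43 in wild type, a difference of 1.78 (SE 0.37, adjusted p = 0.0122, edgeR), lost with counts rescaled from TPM and transcript length (1.92, adjusted p = 0.132). VIM changed by 0.36 in TNRC6AB-/- cells and by -0.77 in wild type, a difference of 1.12 (SE 0.24, adjusted p = 0.0151), lost without wild-type siTNRC6C 3 (1.05, adjusted p = 0.0561). Among all genes 3.03% passed this test in either direction. For THBS1 the difference was -0.57 (SE 0.36, adjusted p = 0.418), and for FN1 it was -0.08 (SE 0.21, adjusted p = 0.867).

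Several members differed between siGL2 and untransfected libraries, and siGL2 is the level each siTNRC6C value is read against. No group was given the transfection reagent alone, so that duplex, reagent and handling cannot be told apart. In wild-type cells 4 rose and 1 fell with siGL2 against untransfected libraries, where 16.4% of all genes rose and 8.41% fell. VIM was at 13.4, 12.5 and 10.1 CPM with siGL2 against 4.55, 3.18 and 4.86 without transfection, 2.85-fold (1.51, SE 0.19, adjusted p = 5.39e-05, edgeR). FN1 rose 1.75-fold (0.81, SE 0.15, adjusted p = 0.00111). CALD1, at 182, 176 and 150 CPM against 124, 116 and 127, rose by 0.47 (SE 0.12, adjusted p = 0.00675), lost in a fit of 6 libraries (0.38, adjusted p = 0.07). MYL9 rose by 0.54 (SE 0.15, adjusted p = 0.0131), lost in that fit (0.45, adjusted p = 0.107), without TMM scaling (0.32, adjusted p = 0.125), without wild type 2 (0.40, 0.0944) and without wild-type siGL2 1 (0.42, 0.101). CDH2 had 1 read in each siGL2 library, 3 in all, against 34 in untransfected wild type, a ratio of rates of 0.0790 (95% exact interval 0.0155 to 0.251, counting error only; adjusted p = 0.00925, edgeR), lost without wild type 2 (adjusted p = 0.0512). THBS1 (-0.56, SE 0.26, adjusted p = 0.119) passed as lower without wild type 2 (-0.84, adjusted p = 0.0324) or TNRC6B-/- 1 (-0.64, adjusted p = 0.0429) and with counts rescaled from TPM and transcript length (-1.75, adjusted p = 0.0217), and AXL (-0.39, SE 0.21, adjusted p = 0.174) without wild type 3 (-0.61, adjusted p = 0.0267). TNC, at -0.79 (adjusted p = 0.0767, edgeR), passed without wild type 3 (-1.05, 0.0223), TNRC6B-/- 1 (-0.86, 0.0498) or TNRC6AB-/- 1 (-0.79, 0.0329) or 2 (-0.86, 0.0442).

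In TNRC6AB-/- cells the control duplex went with a fall of SPARC, to 7.13, 6.41 and 5.92 CPM with siGL2 against 24.9, 20.8 and 34.4 untransfected (-2.04, SE 0.23, adjusted p = 2.57e-06, edgeR). In that comparison 2 members rose and 1 fell, where 9.74% of all genes rose and 10.4% fell. CALD1 rose by 0.35 (SE 0.12, adjusted p = 0.035), a call lost without TNRC6AB-/- 1 (0.26, adjusted p = 0.173) or 2 (0.39, 0.056) or TNRC6AB-/- siGL2 1 (0.29, 0.157) or 2 (0.35, 0.0915). THBS1 rose by 0.74 (SE 0.25, adjusted p = 0.0432), a call lost in 17 of 33 other settings, among them counts rescaled from TPM and transcript length (0.11, adjusted p = 0.911) and the leaving out of TNRC6AB-/- 2 (0.61, adjusted p = 0.158) or 3 (0.64, 0.136) or any TNRC6AB-/- siGL2 library (adjusted p = 0.0585 to 0.123). VIM was at 43.4, 42.0 and 38.3 CPM with siGL2 against 46.5, 35.4 and 36.2 untransfected (0.07, SE 0.17, adjusted p = 0.825). CDH2, at -1.91 (adjusted p = 0.059, edgeR), passed without TNRC6B-/- 1 (adjusted p = 0.0479) or 2 (0.0319) or TNRC6AB-/- 3 (0.0271).

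The effect of transfection differed with genotype for 4 members, in a test that 8.72% of all genes passed. The difference was -2.32 (SE 0.35, adjusted p = 0.000287, edgeR) for SPARC, -1.44 (SE 0.25, adjusted p = 0.000863) for VIM and -1.01 (SE 0.21, adjusted p = 0.00428) for FN1. For THBS1 it was 1.30 (SE 0.37, adjusted p = 0.0283), lost in a fit of 12 libraries (1.39, adjusted p = 0.0529), with counts rescaled from TPM and transcript length (1.86, adjusted p = 0.122) and without any of 8 single libraries, of which wild type 1 moved it most (0.93, adjusted p = 0.11). AXL (0.76, adjusted p = 0.111, edgeR) passed without wild type 3 (0.99, 0.0187) or TNRC6B-/- 1 (0.85, 0.0318), and TNC (1.03, adjusted p = 0.18) without TNRC6AB-/- 1 (1.61, 0.0141). The rise of SPARC and VIM over wild type was smaller among transfected cells, SPARC 3.13-fold with siGL2 and 15.7-fold untransfected, and that of THBS1 larger, 5.75-fold with siGL2 and 2.34-fold untransfected.

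The order of the groups in TPM did not follow that in CPM for every member. For VIM it ran from TNRC6AB-/- siTNRC6C (32.2 ± 0.522 TPM) through TNRC6AB-/- (21.7 ± 8.20) and TNRC6AB-/- siGL2 (21.7 ± 0.200), which overlapped, then TNRC6A-/- (11.6 ± 3.81), TNRC6B-/- (7.475 ± 3.44) and wild-type siGL2 (4.97 ± 0.262), each overlapping the next, to wild-type siTNRC6C (3.105 ± 0.416) and wild type (2.41 ± 0.461), which overlapped. For SPARC untransfected TNRC6AB-/- came first (16.1 ± 3.24 TPM), clear of TNRC6A-/- (7.95 ± 1.37), and wild-type siTNRC6C last (0.328 ± 0.161). For AXL TNRC6AB-/- siTNRC6C came first (65.9 ± 1.78 TPM), then TNRC6A-/- (44.7 ± 5.62) and TNRC6AB-/- siGL2 (39.2 ± 0.309), which overlapped, and wild-type siTNRC6C (12.1 ± 0.156) and siGL2 (11.7 ± 1.04) last. For FN1 the lowest was untransfected wild type (1.90 ± 0.153), clear of TNRC6B-/- (2.58 ± 0.439). For TAGLN each group overlapped its neighbour. THBS1 averaged 7.15, 6.095 and 4.855 TPM in wild type, TNRC6B-/- and TNRC6A-/-, but 20.8, 23.5 and 28.8 CPM. CALD1 averaged 33.9 TPM in wild-type siGL2 and 35.9 TPM in wild type, but 169.3 and 122.4 CPM. In TPM these groups overlapped.

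Transcript shares were read as estimates and are described without a test. CALD1 has 2 clusters of starts in the annotation, and 9 of 13 transcripts counted begin with the upstream cluster, marked by an exon at chromosome 7, 134843884 to 134843971. These held 68.5, 65.3 and 65.4% of the TPM of the 13 in TNRC6AB-/- siTNRC6C libraries against 43.9, 43.1 and 46.4% in TNRC6AB-/- siGL2 and 22.8, 27.9 and 30.4% in wild-type siGL2. The 3 groups did not overlap, while wild-type siTNRC6C at 29.3, 32.95 and 26.7% overlapped wild-type siGL2. Without transfection the differences were smaller and not in 1 direction, with means of 34.3% in TNRC6AB-/- and 23.1% in TNRC6A-/- cells, both without overlap, against 30.9% in wild type, and 25.3% in TNRC6B-/- cells, which overlapped it. By reads the means were 67.8% and 49.8% in the TNRC6AB-/- groups with siTNRC6C and siGL2, and 30.3% in wild-type siGL2. In amounts, the upstream start gave 28.9 ± 1.32 TPM with siTNRC6C and 15.5 ± 0.0720 with siGL2 in TNRC6AB-/- cells, and the downstream start 14.6 ± 1.22 and 19.4 ± 1.41 TPM. Summed over all its 24 transcripts, of which those 13 are a part, CALD1 was at 55.5 ± 1.68 TPM with siTNRC6C and 40.7 ± 1.85 TPM with siGL2, without overlap. This difference therefore includes transcripts outside both starts. In counts, which are not divided by transcript length, CALD1 was not called between these groups (0.10, SE 0.12, adjusted p = 0.63, edgeR).

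**Figure D4:**
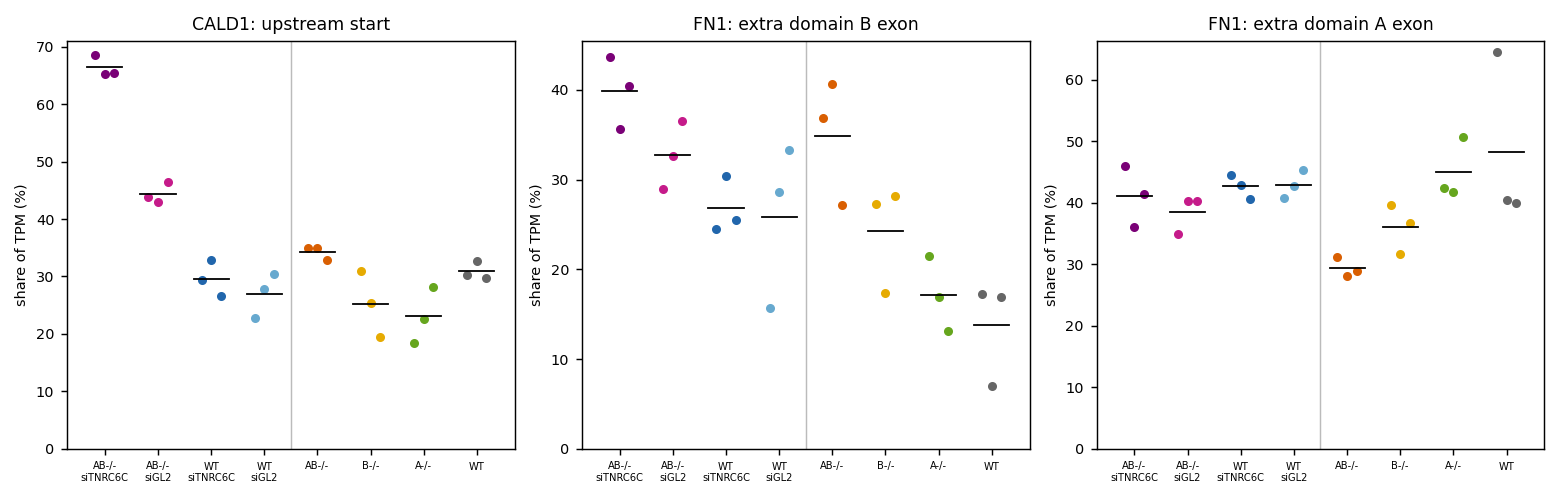
Share in percent (vertical axis, from 0) of the TPM of the transcripts counted that comes from those with the upstream start of CALD1 (left), the extra domain B exon of FN1 (middle) and its extra domain A exon (right), with points for libraries and lines for means of 3. The upstream start of CALD1 averaged 66.4% in TNRC6AB-/- siTNRC6C against 44.4% in TNRC6AB-/- siGL2.

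Fibronectin transcripts differ in extra domain exons that fibroblasts and tumours include and that liver, the source of plasma fibronectin, omits. The extra domain B exon (chromosome 2, 215392931 to 215393203) was held by 36.9, 40.7 and 27.2% of the TPM of transcripts that span it in TNRC6AB-/- libraries against 17.2, 7.05 and 17.0% in wild type, without overlap, and by 24.3 ± 5.98% in TNRC6B-/- and 17.2 ± 4.18% in TNRC6A-/- cells. The extra domain A exon (chromosome 2, 215380811 to 215381080) was held by 31.2, 28.1 and 28.8% in TNRC6AB-/- libraries against 64.5, 40.5 and 39.9% in wild type, the opposite order. With siGL2 the means were 32.7 ± 3.78% (B) and 38.5 ± 3.11% (A) in TNRC6AB-/- cells against 25.9 ± 9.09% and 42.95 ± 2.24% in wild type. For B these groups overlapped, and for A they overlapped by reads but not in TPM. With siTNRC6C in TNRC6AB-/- cells B averaged 39.9 ± 4.05%, without overlap with wild-type siGL2. A averaged 41.1 ± 4.98% there and overlapped it. A 27-base exon of AXL (chromosome 19, 41239694 to 41239720), which separates its long from its short form, was held by 82.95 to 89.7% of the TPM of transcripts that span it in the 8 group means.

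Genes whose log2 CPM followed a member over the 24 libraries are given as a description, since the points share groups, library and depth. For VIM the nearest of 11756 genes were RAB3B (r = 0.955), CERS5 (0.953) and SRGAP2 (0.949), and for FN1 LEPROT (0.963), TMOD3 (0.962) and KCTD10 (0.961). THBS1 was nearest to WEE1 (0.969), E2F7 (0.94) and ST5 (0.937), AXL to ZNF655 (0.966), RBMS2 (0.96) and AGO2 (0.954), an Argonaute, and MYL9 to MID1 (0.958), CERS5 (0.954) and TP53I3 (0.953). SPARC was nearest to AC022075.1 (0.941), GSN (0.936), gelsolin, and CALCOCO1 (0.924), CALD1 to RALA (0.948), BMI1 (0.943) and NAA20 (0.937), and TNC to AL359915.2 (0.88), MRPL45P2 (0.867) and LINC01694 (0.858). CDH2, with TTLL5 (0.798), ULK2 (0.792) and ZDHHC21 (0.774), and TAGLN, with ZSCAN30 (0.681), NDUFAF7 (0.634) and CCNL1 (0.614), had no close neighbour. Among the members VIM ran with MYL9 (0.91) and FN1 (0.858), FN1 with MYL9 (0.908), and SPARC against CALD1 (-0.511).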

How the data were processed

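Total RNA of 24 HCT116 libraries (Trizol per the labels, RNeasy per the study's methods; strand-specific Illumina kit) was sequenced by the authors. They quantified transcripts with Salmon 0.11.0 and deposited, for 199612 transcripts, estimated counts (not whole numbers) and TPM. The submitters' processing notes also name STAR 2.5.3a, DESeq2 and hg38. Of the transcripts 199368 matched GENCODE 29 by identifier with versions removed, and the 244 unmatched held at most 0.0544% of a library's reads. Both units were summed per gene, counts were rounded, and no library was identical to another.

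Counts were scaled by TMM, filtered with filterByExpr and fitted in edgeR 4.0.16 (R 4.3.3, quasi-likelihood, 8 group means, 24 libraries, 16 residual degrees of freedom). The Benjamini-Hochberg adjustment covered 24153 genes, and calls were made under 0.05. Standard errors were derived from each log2 fold change and its F value. Alternatives were DESeq2 1.42.0, limma 3.58.1 voom, other scalings, filters and libraries, and a replicate block. The fit was tested on simulated data. The numbers of replicates were not taken as pairs, because same-numbered libraries did not deviate together in every pair.

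Members, gene lists and alternatives were chosen with earlier results of these data known. Named genes are the 10 members, their 3 nearest genes by Pearson r among genes with a mean of at least 5 CPM, their paralogs, the first 3 called genes of a list by adjusted p, cell type markers and the TNRC6 genes. Transcript shares and likeness were not tested. Intervals and floors cover counting error only. Python used numpy 2.4.6, pandas 2.3.3 and matplotlib 3.10.9.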

Additional observations from a re-analysis of the deposited data

Results flagged for a closer look

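The response of 5 members differed between backgrounds by a test of the difference itself (edgeR, adjusted p under 0.05), for 9 differences in all.

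For the loss of TNRC6A in cells without TNRC6B against the same loss in cells with it, the difference was -0.91 for VIM, -1.77 for SPARC and 6.97 for CDH2, on the log2 scale. The value of CDH2 rests on 3 TNRC6A-/- libraries at 0 reads and depends on the prior count, so that its size is no measure, and it did not pass in a fit of the 12 libraries (adjusted p = 0.0898).

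For siTNRC6C against siGL2 in TNRC6AB-/- cells and the same in wild type, the difference was 1.12 for VIM and 1.78 for SPARC. Both genes fell in wild type and were not called in TNRC6AB-/- cells.

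For siGL2 against untransfected cells in TNRC6AB-/- cells and the same in wild type, the difference was -1.44 for VIM, -1.01 for FN1, -2.32 for SPARC and 1.30 for THBS1. VIM and FN1 were called higher in wild type only, SPARC was called lower and THBS1 higher in TNRC6AB-/- cells only. TNRC6AB-/- cells were plated more densely than wild type for transfection, and the part of plating density in these differences was not tested.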

How the results depend on the processing

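Under the alternatives 3944 values of members were recomputed. Of these 3773 stayed on their side of the threshold, 70 of them with a change of sign that was called in neither fit, 108 lost their call, 62 gained one, and 1 turned from an uncalled fall to a called rise: CALD1 in TNRC6AB-/- siTNRC6C against wild-type siGL2, 0.18 without TMM scaling. That setting shifted the median of all genes by 0.24 in this comparison, 0.14 in TNRC6AB-/- siGL2 against wild-type siGL2, 0.10 in TNRC6AB-/- siTNRC6C against TNRC6AB-/- siGL2 and -0.21 in wild-type siGL2 against wild type. The share of higher among all called genes there was 61.95%, 62.4%, 50.1% and 32.1%, against 40.4%, 42.3%, 33.4% and 66.1% with TMM, and 54.1% against 70.1% in TNRC6B-/- cells.

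Counts of called members moved as follows. In fits of the compared groups alone, where CDH2 did not pass the filter in TNRC6A-/- cells or in wild-type siGL2 against wild type and so had no test, 0 fell in TNRC6A-/- cells, 2 rose with siTNRC6C in wild type, 6 rose with siTNRC6C in TNRC6AB-/- cells against siGL2, 2 rose and 0 fell in wild-type siGL2 against wild type, 1 passed the interaction of both losses and 4 that of siTNRC6C and genotype. With limma voom 4 rose with siTNRC6C in TNRC6AB-/- cells and 2 in wild-type cells. With counts rescaled from TPM and transcript length 0 rose and 0 fell with siTNRC6C in wild type, 3 fell in wild-type siGL2 against wild type, 0 rose in TNRC6AB-/- siGL2 against TNRC6AB-/- and 1 passed the interaction of siTNRC6C and genotype. Without TMM scaling 3 rose with siTNRC6C in TNRC6AB-/- cells, 2 fell in wild-type siGL2 against wild type and 1 rose in TNRC6AB-/- siGL2 against TNRC6AB-/-. Without a filter 2 rose with siTNRC6C in TNRC6AB-/- cells, 3 fell in wild-type siGL2 against wild type and 2 in TNRC6AB-/- siGL2 against TNRC6AB-/-. With wild type 2 and TNRC6B-/- 1 both left out, 1 fell in TNRC6A-/- cells, 2 rose with siTNRC6C in TNRC6AB-/- cells, 2 fell in wild-type siGL2 against wild type and 2 in TNRC6AB-/- siGL2 against TNRC6AB-/-. With DESeq2 0 fell in wild-type siGL2 against wild type, where CDH2 had no adjusted p. With a log2 fold change beyond 0.6 also required, 2 rose in wild-type siGL2 against wild type and 1 in TNRC6AB-/- siGL2 against TNRC6AB-/-.

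Leaving out 1 library gave 1 to 2 that fell in TNRC6A-/- and 0 to 1 in TNRC6AB-/- cells (TNC without TNRC6AB-/- 1), 0 to 1 that rose and 0 to 2 that fell with siTNRC6C in wild type, 0 to 2 that rose with it in TNRC6AB-/- cells, 1 to 3 that fell in wild-type siGL2 against wild type, 0 to 2 that rose and 1 to 2 that fell in TNRC6AB-/- siGL2 against TNRC6AB-/-, and 1 to 2 for the interaction of siTNRC6C and genotype. With the replicate block, 6 members rose in TNRC6AB-/- siTNRC6C against wild-type siGL2 in place of 7 (TNC, 0.79, adjusted p = 0.0582), and it changed no other call. With 16.3 to 74.9 reads per library for TNC and 28 or fewer for CDH2, depth limits both genes.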

Other observations

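Replicate 1 had the highest TPM of VIM and of FN1 in each of the 4 untransfected groups. This did not hold in CPM, where FN1 in TNRC6B-/- cells was lowest in replicate 1 (19.0 CPM against 25.9 and 28.8) and VIM in wild type was highest in replicate 3 (4.86 CPM). THBS1 was highest in TPM and in CPM in replicate 1 of wild type, TNRC6B-/- and TNRC6AB-/-. The labels name no batch, day or run for these numbers.

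Biological coefficients of variation over all genes, fitted per group, were 0.114 to 0.257 in untransfected and 0.0343 to 0.125 in transfected groups.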
